A study of Mus musculus with 18 samples.

Results

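Mouse ovarian follicles exposed for 24 h to recombinant anti-Müllerian hormone (AMH) at 200 ng/mL were compared with follicles of the same pools that received vehicle. The comparison rests on 6 of the 18 arrays of the study, chosen by the dose and time in their titles: 3 arrays of AMH 200 ng/mL and 3 of vehicle, paired by replicate number. Preantral to small antral follicles came from female C57BL/6Ntac mice aged 6 to 8 weeks, and each replicate was a pool of the follicles of 7 mice, divided over the doses and kept in single drops. All cultures, vehicle included, also received 80 IU/L of follicle-stimulating hormone (FSH) and 10 IU/L of luteinising hormone (LH), so AMH was tested on top of gonadotropins. The remaining 24 h cultures received 50 ng/mL of AMH, and separate pools were cultured for 12 h.

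AMH is a hormone of the transforming growth factor beta superfamily that is made by the granulosa cells of small growing follicles. It binds its own type 2 receptor, AMHR2, which pairs with the type 1 receptors ALK2 (Acvr1), ALK3 (Bmpr1a) and ALK6 (Bmpr1b) of the bone morphogenetic protein (BMP) family, and these phosphorylate SMAD1, SMAD5 and SMAD9. In the ovary, AMH is known to restrain the recruitment of primordial follicles and to lower the response of growing follicles to FSH.

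Biotin-labelled cDNA amplified from 5 ng of total RNA was hybridised to Affymetrix Mouse Genome 430 2.0 arrays. A probe set on them is a group of short oligonucleotides against 1 transcript or, for some, several related ones. Levels are given as deposited signal intensity on a linear scale, and differences as log2(signal + 16) of AMH 200 ng/mL minus that of vehicle, averaged over the 3 pools, with the standard error (SE) of the limma model. Probe sets were tested when their mean lay above the median of all, near a signal of 28.3, which left 22518 probe sets and 11170 named genes. The 3 pools are separate pools of mice, and their small number limits the precision. The SE comes from the residual of all 9 arrays of 24 h, including those of the other AMH dose, and draws on the other probe sets. It is therefore not the spread of the 3 pool differences given for a gene. Cyp17a1, with pool differences of -1.85, 0.03 and -3.14, has an SE of 0.45. Zp3, with pool differences of 0.18, -0.14 and 0.06, has an SE of 0.44. Across probe sets, the Pearson correlation of the AMH and vehicle arrays of a pool was 0.981, 0.968 and 0.984, and the lowest value among the 9 arrays of 24 h was 0.954.

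The arrays carried the genes that define growing follicles. The granulosa cell transcription factor gene Foxl2 had signals of 1150, 972 and 1029 in AMH-treated follicles, against 1004, 862 and 1001 in vehicle. The zona pellucida gene Zp3, an oocyte marker, had 181, 1061 and 654 with AMH, against 158, 1172 and 625 in vehicle, so the amount of oocyte transcript differed far more between pools than between treatments. The summed signal of 22 granulosa cell markers was 19518 to 21080 with AMH and 18510 to 20648 in vehicle. Of 8 listed red blood cell markers, 4 had a probe set under 1 gene symbol, and 0 of these reached the tested range. The others were not measured here. The probe set of Amh itself gave only 3.44, 21.0 and 5.81 in AMH-treated follicles, against 21.7, 18.2 and 13.1 in vehicle, which is below the tested range.

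Across the whole table, no probe set passed the adjusted threshold. At a Benjamini-Hochberg adjusted p under 0.05, limma called 0 of 22518 probe sets (0%), and the smallest adjusted p was 0.0757, for the lysozyme gene Lyz1. At an unadjusted p under 0.05 there were 984 probe sets (4.37%), of which 528 (2.34%) were lower and 456 (2.03%) higher with AMH. By direction of the estimate alone, 10322 probe sets (45.8%) were lower and 12196 (54.2%) higher. Lyz1 passed the threshold (adjusted p = 0.000412 to 0.0465) under 5 other settings, of which median centring and array weights gave 4 probe sets each, and the remaining settings gave 0. The estimate of the middle 90% of genes lay between -0.30 and 0.29, around a median of 0.01, and the median SE was 0.16. No gene described below is called in the fit used here, and the values are a description of these 3 pools.

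The pools resembled each other little in how AMH-treated and vehicle follicles differed. Across the 22518 probe sets, the log2 differences of pools 1 and 2 correlated with r = 0.12, those of pools 1 and 3 with r = 0.19, and those of pools 2 and 3 with r = -0.16. Differences were widest in pool 2, with an SD of 0.388 over probe sets, against 0.293 in pool 1 and 0.275 in pool 3. In all 3 pools, 2633 probe sets (11.7%) were lower and 3578 (15.9%) higher with AMH. The AMH and vehicle signals did not overlap for 641 probe sets (2.85%) that were lower and 1039 (4.61%) that were higher. A difference of at least 2-fold in every pool was found for 3 probe sets that were lower (0.0133%), those of Lyz1, the interferon gamma receptor subunit gene Ifngr2 and the acute-phase protein gene Saa3, and for 0 that were higher (0%). With any 1 pool left out, 9 to 22 were at least 2-fold lower and 1 to 9 at least 2-fold higher in both remaining pools. When each gene was read at its brightest tested probe set, 1 of the 11170 genes (0.00895%), Saa3, was lower by that much, and 551 genes (4.93%) had an unadjusted p under 0.05.

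**Figure D1:**
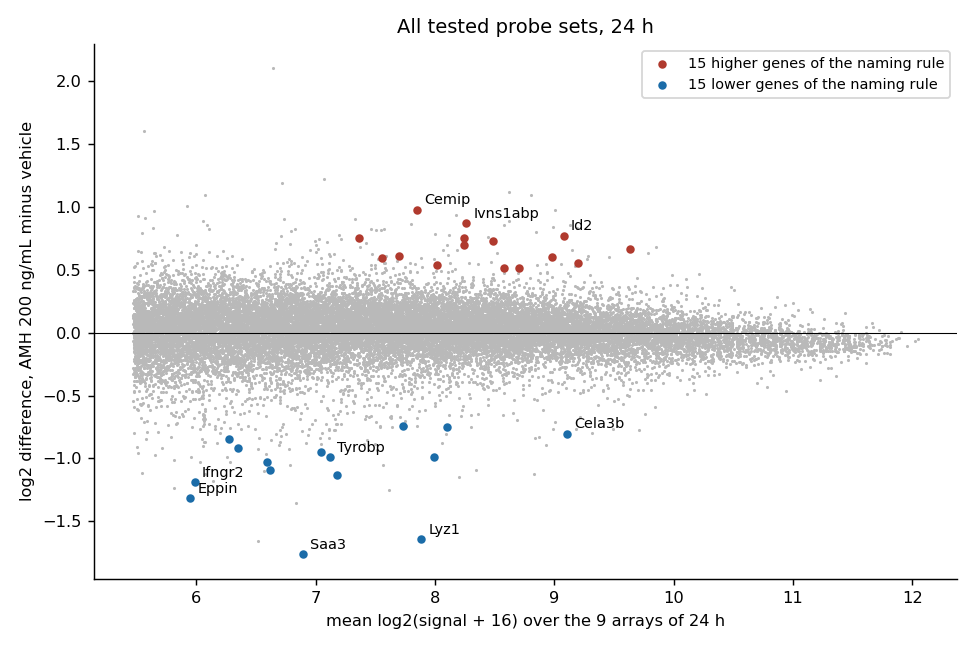
Log2 difference of AMH 200 ng/mL minus vehicle at 24 h (vertical) against the mean log2(signal + 16) over the 9 arrays of 24 h (horizontal) for the 22518 tested probe sets, 1 point each. The 15 higher and 15 lower genes with the smallest unadjusted p that moved the same way in all pools are coloured, and among them Saa3 and Lyz1 lie furthest down, at -1.76 and -1.64.

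In the AMH pathway itself, the estimates of most receptor genes were near 0, and those of the inhibitory SMAD gene Smad6 and of Id genes were above 0. Of 21 tested pathway genes, 8 were lower and 13 higher with AMH, with a median of 0.01, against 46.8% lower, 53.2% higher and a median of 0.01 over all genes. Amhr2, the AMH-specific receptor, had signals of 1298, 1606 and 1473 with AMH, against 1332, 1522 and 1500 in vehicle. The difference was 0.00 (SE 0.12), and the 2 groups overlapped. The type 1 receptor genes Acvr1 (-0.04, SE 0.13) and Bmpr1a (-0.03, SE 0.11) were also near 0, and Bmpr1b stood at 0.35 (SE 0.21), higher in each pool by 0.30 to 0.39.

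Among the receptor-activated SMADs, Smad5 had 526, 599 and 484 in AMH-treated follicles, against 420, 451 and 446 in vehicle. Each AMH array lay above each vehicle array, and the difference was 0.28 (SE 0.12, limma adjusted p = 1.00). Its other tested probe sets gave 0.05 (SE 0.10), with overlap, and 0.33 (SE 0.12), without. Smad1 differed by 0.03 (SE 0.10) at its brightest probe set. A second Smad1 probe set of similar brightness had 595, 624 and 661 with AMH, against 418, 490 and 544 in vehicle, without overlap (0.37, SE 0.10, adjusted p = 0.905). Smad9 was near background, at 18.2, 13.3 and 7.70 with AMH and 5.01, 3.57 and 7.44 in vehicle. The common partner Smad4 differed by 0.10 (SE 0.11).

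Of 12 tested direct targets of SMAD1/5/9, 9 had a higher estimate with AMH and 3 a lower one, with a median of 0.19 (0.12 without pool 1) and pool medians of 0.31, 0.16 and 0.38. Higher in all 3 pools were 4 of the 12, against 16.4% of all genes, 2 had an unadjusted p under 0.05, against 2.09% in that direction, and 1, Id3, did not overlap, against 4.69%. Smad6, which blocks BMP receptors and SMAD1, had signals of 98.5, 159 and 197 with AMH and 73.7, 107 and 85.0 in vehicle. It was higher in each pool, by 0.35, 0.50 and 1.07, but the lowest AMH array lay below the highest vehicle array (mean 0.64, SE 0.19, adjusted p = 0.961). Id3, an inhibitor of bHLH transcription factors, had 1187, 1420 and 1410 in AMH-treated follicles, against 878, 1187 and 1078 in vehicle. It was higher in each pool, by 0.43, 0.26 and 0.38, with a mean of 0.36 (SE 0.15), and the groups touched at 1187 in an AMH array of pool 1 and a vehicle array of pool 2. Id1 stood at 0.14 (SE 0.12) and the BMP pseudoreceptor gene Bambi at 0.21 (SE 0.16), each with pools in both directions. The probe sets of Smad7, a feedback inhibitor, disagreed: the brighter one gave -0.06 (SE 0.18), with pools in both directions, and the dimmer one 0.48 (SE 0.16, adjusted p = 0.997). At the dimmer one Smad7 had 217, 204 and 206 with AMH, against 129, 169 and 139 in vehicle, without overlap.

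Id2, a second member of the Id family, was the named gene with the smallest unadjusted p among the higher ones. At that probe set it had 723, 533 and 865 with AMH, against 326, 318 and 616 in vehicle, a difference of 0.77 (SE 0.15, adjusted p = 0.766) with pool values of 1.11, 0.72 and 0.48. The vehicle array of pool 3 lay above the AMH array of pool 2. Its brighter probe set gave 0.35 (SE 0.16), and in pool 2 only 0.06, so the size depends on which probe set is read. The stretch from 250 to 151 bases before the Id2 start (RefSeq, GRCm38.p6, chr12:25096243-25096342, minus strand) is shown because it holds the letters GGCGCC, a GC-rich site described for SMAD1 and SMAD5, in capitals.
Id2: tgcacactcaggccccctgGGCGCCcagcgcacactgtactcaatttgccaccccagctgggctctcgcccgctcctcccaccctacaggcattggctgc
The letters were searched on both strands of windows from 250 bases before to 50 after each start. They occurred in 4 of the 8 tested SMAD targets with a window (50.0%), against 13.4% of 27025 genes. A match describes the letters and not binding.

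Higher signals outside the pathway list came from genes of several kinds. The 15 named higher genes differed by 0.51 to 0.98, and were chosen by p and direction on these same arrays. For 13 of them the AMH and vehicle signals did not overlap, against 4.61% of all probe sets, which follows largely from that choice. Ivns1abp, an actin-binding kelch protein gene, had 398, 597 and 358 with AMH, against 234, 266 and 205 in vehicle (0.87, SE 0.18, adjusted p = 0.766). Its 2 brighter probe sets gave smaller estimates, of 0.13 and 0.16. Stmn1, which encodes the microtubule regulator stathmin, had 716, 872 and 606 in AMH-treated follicles and 425, 583 and 472 in vehicle, with all AMH arrays above all vehicle arrays, while its brighter probe set gave 0.23 (SE 0.15), with overlap. Smad2, an effector of the activin branch, differed by 0.61 (SE 0.14) at 1 probe set and by 0.07 (SE 0.10) at a brighter one.

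The matrix glycoprotein gene Thbs1 had 405, 660 and 400 with AMH, against 181, 333 and 362 in vehicle, with a difference of only 0.14 in pool 3. A slightly dimmer Thbs1 probe set gave 0.55 (SE 0.24), with overlap and a pool 3 difference of -0.06. Pdk4, which encodes a kinase that holds back pyruvate oxidation, had 420, 453 and 298 with AMH and 210, 215 and 276 in vehicle, so the difference of 0.69 (SE 0.18) came mostly from pools 1 and 2. Cemip, a hyaluronan-degrading protein gene, had the largest estimate among the 15, at 0.98 (SE 0.24), with pool differences of 0.42, 1.57 and 0.94, and a dimmer probe set gave 0.51 (SE 0.22). The nuclear receptor corepressor gene Nrip1 was higher at all 4 of its tested probe sets, by 0.30 to 0.51. The others, at 0.51 to 0.75, were the DNA repair gene Parp1, the PBX-interacting protein gene Pbxip1, the LIM-domain gene Pdlim4, the ARF exchange factor gene Iqsec1, Tmem64, Mlf1 and the olfactomedin-like gene Olfml2b. The brighter probe sets of Parp1 gave 0.33 and 0.40, and those of Tmem64 0.31 and 0.01.

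**Figure D2:**
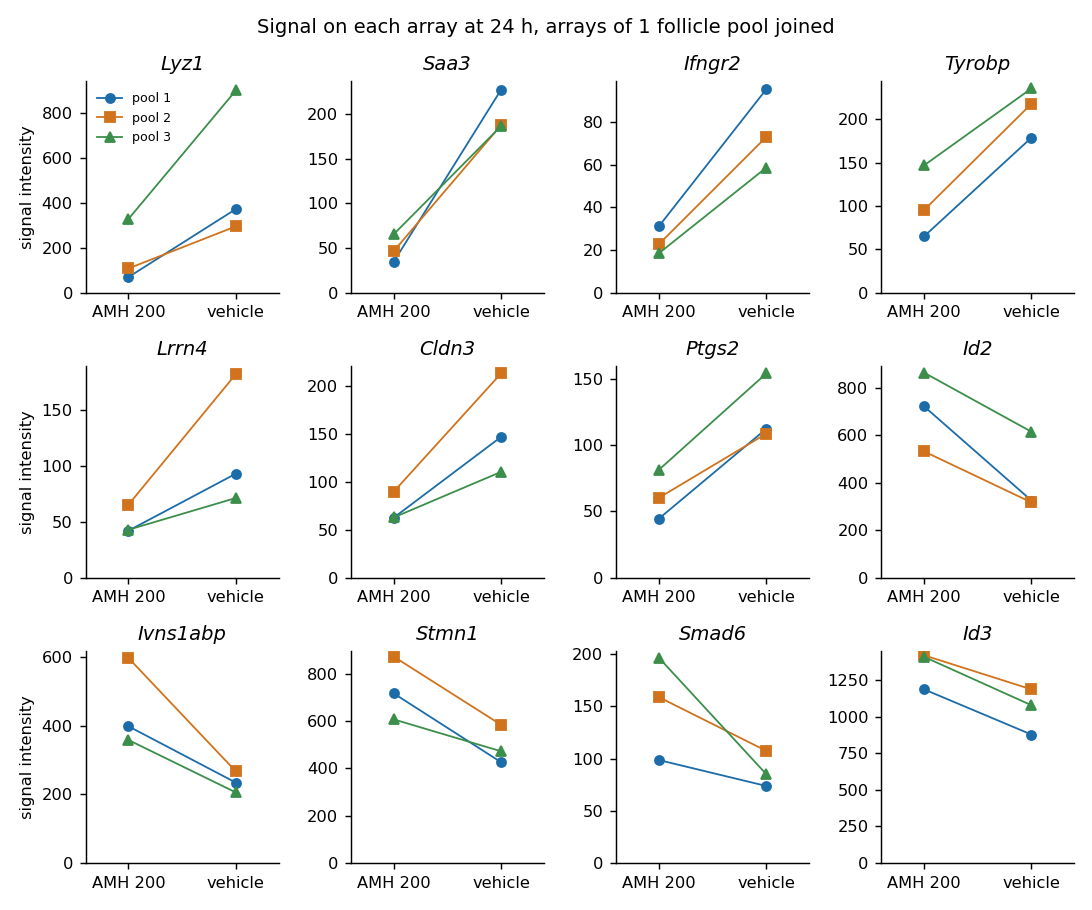
Signal intensity (vertical, from 0) of 12 genes in AMH 200 ng/mL (left of each panel) and vehicle (right) at 24 h, with the 2 arrays of each follicle pool joined. Every line runs upward to vehicle for Lyz1, Saa3, Ifngr2, Tyrobp, Lrrn4, Cldn3 and Ptgs2 and downward for Id2, Ivns1abp, Stmn1, Smad6 and Id3.

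Most macrophage and leukocyte transcripts were lower with AMH. The estimates of 17 of 18 tested markers lay below 0, with a median of -0.76. Of the 18, 13 had an unadjusted p under 0.05, against 2.85% of all genes in that direction, 10 were lower in all 3 pools, against 12.4%, and 2 did not overlap, against 3.16%. None passed the adjusted threshold. The pool medians were -1.07, -0.13 and -0.77, so pool 2 contributed little, and without pool 1 the list median was -0.49. With no filter on low values it was -0.43. In whole follicles, fewer cells of a type and less RNA per cell cannot be told apart.

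Tyrobp, the signalling adaptor of myeloid receptors, had 64.9, 95.2 and 147 in AMH-treated follicles, against 179, 218 and 236 in vehicle. The groups did not overlap, and the difference was -0.99 (SE 0.19, adjusted p = 0.766). The macrophage lysozyme gene Lyz2 had 90.4, 195 and 381 with AMH and 314, 295 and 662 in vehicle. Its pool differences were -1.63, -0.56 and -0.77, and the highest AMH array, of pool 3, lay above both lower vehicle arrays.

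Lyz1, a lysozyme gene nearly identical to Lyz2, had 69.2, 108 and 328 with AMH and 372, 295 and 899 in vehicle, a difference of -1.64 (SE 0.18). Both Lyz1 probe sets are of a kind that can bind related transcripts, so the share of each paralog in them is uncertain, and the second gave -1.13 (SE 0.22). Cd53, a leukocyte tetraspanin gene, stood at -1.09 (SE 0.23), the complement genes C1qc and C1qb at -0.97 (SE 0.25) and -0.94 (SE 0.24), the cathepsin gene Ctss at -1.05 (SE 0.35) and the Fc receptor gene Fcgr3 at -0.89 (SE 0.29). The C1qc signals of 11.4 and 19.4 with AMH and 27.1 in vehicle lay below the level of the filter, so the size of its difference depends on the added 16. Its other vehicle signals, of 55.5 and 116, helped it reach the tested range, so its lower estimate follows partly from the filter. Cd52, a leukocyte surface glycoprotein gene at 0.16 (SE 0.42), was the only one of the 18 with a higher estimate.

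The summed signal of all 38 markers was 1255, 2395 and 3324 with AMH, against 3558, 2838 and 5744 in vehicle. Several genes that define leukocytes were near background in both groups: Ptprc (CD45) had 3.49 to 7.06 with AMH and 5.36 to 13.0 in vehicle, Adgre1 (F4/80) 4.17 to 8.59 and 6.98 to 10.1, and Spi1 (PU.1) 4.37 to 10.1 and 8.21 to 15.5. The macrophage receptor gene Csf1r was measured, at 45.1, 118 and 145 with AMH and 86.4, 90.3 and 246 in vehicle, and overlapped between groups.

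PU.1 is the transcription factor that drives macrophage genes, and its core letters GAGGAA, searched on both strands of the same windows, occurred in 7 of 12 tested leukocyte markers with a window (58.3%), against 31.3% of 27025 genes. Of the lower markers with the letters in the last 100 bases before the start, 3 are shown, with the match in capitals (TTCCTC where it lies on the other strand), from RefSeq GRCm38.p6: Cd53 at chr3:106790150-106790249 (minus strand), C1qb at chr4:136886201-136886300 (minus strand) and Laptm5, a lysosomal leukocyte gene that differed by -0.77 (SE 0.34), at chr4:130913216-130913315 (plus strand).
Cd53: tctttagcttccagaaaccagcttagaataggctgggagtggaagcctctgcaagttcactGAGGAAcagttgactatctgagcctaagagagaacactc
C1qb: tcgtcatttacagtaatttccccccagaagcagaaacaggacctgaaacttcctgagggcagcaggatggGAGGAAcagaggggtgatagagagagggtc
Laptm5: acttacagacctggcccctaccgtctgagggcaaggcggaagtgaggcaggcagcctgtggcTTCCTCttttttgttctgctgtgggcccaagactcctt
Such a short run of letters is common, and its presence says nothing about PU.1 binding in these follicles.

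Secreted inflammatory genes were lower beside the leukocyte markers. Of 13 tested chemokines and cytokines, 11 had lower estimates, with a median of -0.53. Lower in all pools were 7, against 12.4% of all genes, and 6 had an unadjusted p under 0.05, against 2.85%. The pool medians were -0.53, -0.61 and -0.44, and the list median was -0.34 with a pseudocount of 50, -0.32 with only probe sets above the 75th percentile and -0.18 with no filter on low values. Ccl2, the monocyte-attracting chemokine, had 106, 208 and 397 with AMH, against 266, 523 and 700 in vehicle (-1.09, SE 0.23, adjusted p = 0.766). It was lower in each pool by 0.79 to 1.26, while the levels of the pools differed so that the groups overlapped. The related Ccl7 stood at -0.84 (SE 0.17), and Ccl6 and Ccl9, which did not overlap between groups, at -1.12 (SE 0.36) and -1.03 (SE 0.33).

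Saa3, an acute-phase serum amyloid gene made by macrophages and epithelia, had 34.5, 46.4 and 65.3 in AMH-treated follicles, against 227, 187 and 186 in vehicle. All 3 vehicle arrays lay well above all AMH arrays, and the difference of -1.76 (SE 0.30, adjusted p = 0.766) was the lowest of all genes. Of 26 tested acute-phase and innate immune genes, 18 were lower, with a median of -0.20 (-0.12 without pool 3, and -0.04 with only probe sets above the 75th percentile). Of the 26, 5 did not overlap, against 3.16% of all genes, among them the interleukin-1 antagonist gene Il1rn (-0.73, SE 0.18) and Cebpd (-0.47, SE 0.15), a transcription factor of the acute phase. Ifngr2 had 31.1, 22.7 and 18.5 with AMH and 95.5, 73.1 and 58.7 in vehicle at 1 probe set (-1.19, SE 0.17, adjusted p = 0.559). The AMH signals of 22.7 and 18.5 lay below the level of the filter, so the size of that difference depends on the added 16. The other Ifngr2 probe set, with signals of 620 to 666 with AMH and 487 to 639 in vehicle, gave 0.13 (SE 0.11), so the gene's probe sets disagree in sign. Interferon response genes had a median of -0.14, with 18 of 21 lower (-0.09 without pool 1 and -0.22 without pool 3). The leukocyte marker sums given above were lower in the same arrays, and their part in these inflammatory differences was not tested.

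Transcripts of the ovarian surface epithelium, the mesothelium-like layer that covers the ovary, were lower throughout their list. All 18 tested markers had a lower estimate with AMH, and the median was -0.59. Of the 18, 14 were lower in every pool, against 12.4% of all genes, 10 did not overlap, against 3.16%, and 15 had an unadjusted p under 0.05, against 2.85%. Pool medians were -0.46, -1.09 and -0.19, and the list median was -0.33 without pool 2. Muc16, the mucin known as CA125, had 29.5, 27.9 and 24.7 with AMH, against 57.4, 87.0 and 56.3 in vehicle (-0.92, SE 0.21, adjusted p = 0.791). Its AMH signals of 27.9 and 24.7 lay below the level of the filter, so the size of the difference depends on the added 16. The stem cell marker gene Lgr5, also in the list, had 26.2, 21.3 and 26.7 with AMH, against 26.7, 90.6 and 48.7 in vehicle. Muc16 and Lgr5 reached the tested range through their vehicle arrays. For such members a lower estimate follows partly from the filter, so the counts of this list only describe it. Lrrn4, a mesothelial leucine-rich repeat gene, had 42.0, 65.2 and 42.8 with AMH and 92.9, 182 and 71.2 in vehicle. The uroplakin gene Upk3b had 382, 472 and 374 with AMH and 560, 1096 and 564 in vehicle.

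None of these 3 genes overlapped between groups, and the gap was widest in pool 2. Mesothelin (Msln) stood at -0.71 (SE 0.20), the keratin gene Krt8 at -0.49 (SE 0.15), the E-cadherin gene Cdh1 at -0.57 (SE 0.18) and Wt1, which granulosa cells also express, at -0.52 (SE 0.14). The tight junction gene Cldn3 (-0.95, SE 0.16) and the mucin gene Muc1 (-1.03, SE 0.20) are also epithelial, but neither is in this list. Both come from the 15 named lower genes, which were chosen by p and direction on these arrays. At 50 ng/mL against vehicle, Cldn3 stood at -0.10 (SE 0.16) and Muc1 at -1.47 (SE 0.20). Cldn3 had 62.7, 89.8 and 62.9 with AMH, against 147, 213 and 111 in vehicle. The summed signal of 19 surface epithelium markers was 7706, 8489 and 8935 with AMH and 9518, 14754 and 9374 in vehicle, so the vehicle array of pool 2 stood highest.

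The remaining named lower genes were Eppin, a protease inhibitor gene (37.7, 28.1 and 15.8 with AMH, against 167, 54.7 and 73.6 in vehicle), Pigt, a subunit gene of the enzyme that attaches membrane anchors, the elastase gene Cela3b, the adhesion molecule gene Emb and the transcription factor gene Myrf. The Eppin signals of 28.1 and 15.8 with AMH lay below the level of the filter, so the size of its difference depends on the added 16. The 15 lower genes differed by -0.75 to -1.76, and were chosen by p and direction on these same arrays. Of them, 10 did not overlap between groups, against 2.85% of all probe sets, which follows largely from that choice.

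**Figure D3:**
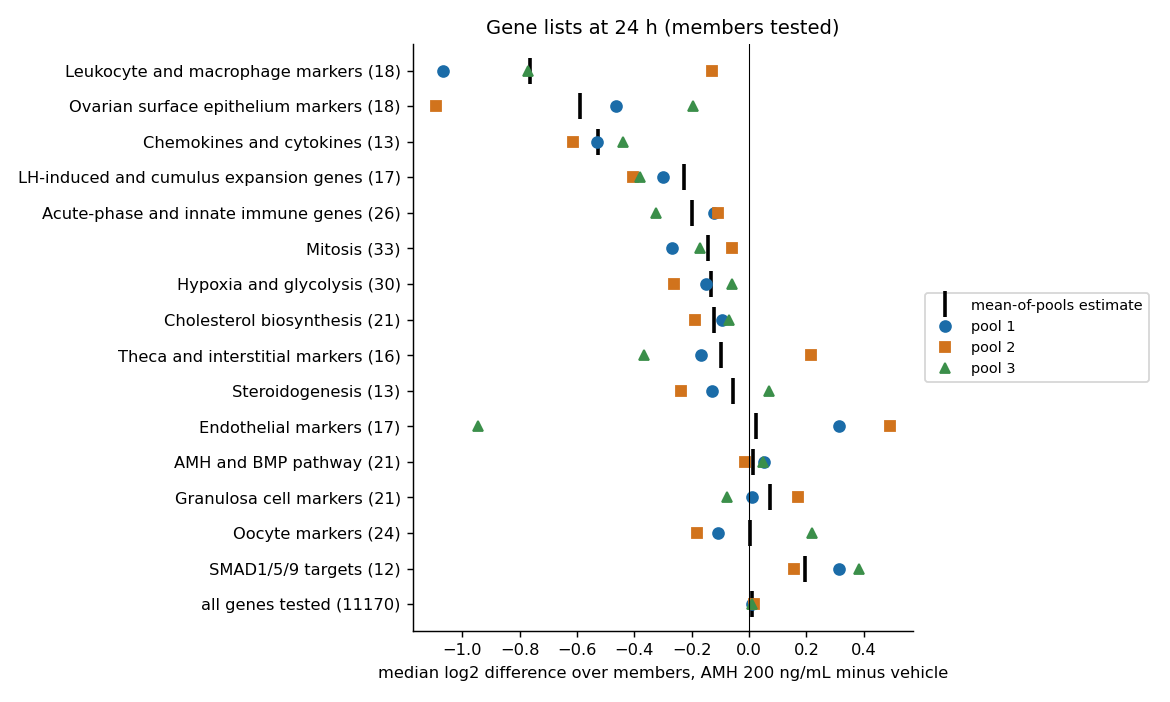
Median log2 difference of AMH 200 ng/mL minus vehicle over the members of 15 gene lists and over all genes, with the number of members tested in brackets. Coloured symbols are the 3 pools and the black bar is the median of the members' estimates. Leukocyte, surface epithelium, chemokine, LH-induced, acute-phase, mitosis, hypoxia and cholesterol medians lie below 0 in each pool. Those of SMAD1/5/9 targets and of all genes lie above 0 in each pool, all genes at 0.01 to 0.02.

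Genes induced by LH in granulosa and cumulus cells were mostly lower. Of 17 tested, 14 had a lower estimate, with a median of -0.23 and pool medians of -0.30, -0.41 and -0.38. Lower in all pools were 7, against 12.4% of all genes. At an unadjusted p under 0.05, 6 were lower, against 2.85% of all genes, and 1 higher, against 2.09%. The median was -0.37 without pool 2, -0.15 with no filter on low values and -0.05 when only probe sets above the 75th percentile were kept. Ptgs2, the prostaglandin synthase of ovulation, had 44.5, 60.2 and 81.3 with AMH, against 112, 108 and 154 in vehicle (-0.87, SE 0.24, adjusted p = 0.961), without overlap. A second Ptgs2 probe set had 39.9, 56.5 and 101 with AMH and 58.9, 76.0 and 149 in vehicle, lower in each pool but with overlap (-0.42, SE 0.22). Betacellulin (Btc), an EGF-like ligand that relays the LH signal, had 34.1, 57.0 and 55.4 with AMH and 95.7, 104 and 75.1 in vehicle, without overlap (-0.74, SE 0.20). Tnfaip6, a hyaluronan-binding protein of the expanding cumulus, stood at -0.65 (SE 0.21), Adcyap1, which encodes the ovulatory peptide PACAP, at -1.03 (SE 0.31), and the EGF-like ligand gene Ereg at -0.46 (SE 0.24). The 1 member with an unadjusted p under 0.05 in the other direction was the WNT modulator gene Sfrp4, with 706, 802 and 302 with AMH, against 217, 127 and 561 in vehicle, lower with AMH in pool 3. Lhcgr, Cyp19a1 and Areg were not analysed here.

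Steroid-producing genes did not move as a block. Of 13 tested, 9 had a lower and 4 a higher estimate, with a median of -0.06 and pool medians of -0.13, -0.24 and 0.07. At an unadjusted p under 0.05, 3 were lower, against 2.85% of all genes, and 0 higher, against 2.09%. Star, which carries cholesterol into mitochondria, had 1476, 1127 and 1379 in AMH-treated follicles, against 2203, 1472 and 1628 in vehicle, lower in each pool by 0.24 to 0.57 (-0.40, SE 0.12, adjusted p = 0.961). The side-chain cleavage gene Cyp11a1 differed by 0.00 (SE 0.15) and Hsd3b1 by -0.06 (SE 0.19). Akr1c18, which inactivates progesterone, had 10.7, 29.4 and 9.90 with AMH and 48.3, 56.4 and 71.9 in vehicle (-1.24, SE 0.26, adjusted p = 0.766). Its AMH signals of 10.7 and 9.90 lay below the level of the filter, so the size of the difference depends on the added 16. The theca cell androgen enzyme gene Cyp17a1 had 35.0, 30.9 and 33.6 with AMH, against 168, 29.8 and 421 in vehicle. Its mean difference of -1.65 (SE 0.45) came from pools 1 and 3, at -1.85 and -3.14, while pool 2 gave 0.03. Theca and interstitial markers, with 13 of 16 lower, had a median of -0.10 and pool medians of -0.17, 0.21 and -0.36. Their summed signal was 12212 to 14216 with AMH and 13126 to 15834 in vehicle.

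Granulosa cell identity genes and the FSH targets stood close to vehicle. Of 21 tested granulosa markers, 9 were lower and 12 higher with AMH, with a median of 0.07. The FSH receptor gene Fshr had 144, 55.8 and 156 with AMH, against 213, 78.0 and 155 in vehicle (-0.30, SE 0.29). Inha, the inhibin alpha subunit, differed by -0.01 (SE 0.16). Inhba, the shared subunit of activin A and inhibin A, had 1477, 939 and 1667 with AMH and 582, 865 and 1211 in vehicle, and its pool differences of 1.32, 0.12 and 0.46 spread too widely for the mean of 0.63 (SE 0.37) to stand out. Genes induced by FSH had a median of 0.04, with 8 lower and 8 higher. The transporter gene Slc18a2, a granulosa marker, had 574, 571 and 1110 with AMH against 864, 900 and 1259 in vehicle (-0.47, SE 0.13).

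Oocyte genes were evenly divided between higher and lower. Of 24 tested markers, 12 had lower and 12 higher estimates, with a median of 0.00 and 0 at an unadjusted p under 0.05. The oocyte growth factor gene Gdf9 had 149, 621 and 395 with AMH, against 103, 730 and 277 in vehicle (0.25, SE 0.29), and Bmp15, its partner, differed by 0.01 (SE 0.18). Kit ligand (Kitl), the granulosa signal to the oocyte, differed by 0.19 (SE 0.15).

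Proliferation and metabolic lists had small negative medians. The median of 33 mitosis genes was -0.14, with 29 of them lower, against 46.8% of all genes. At an unadjusted p under 0.05, 1 was lower, against 2.85% of all genes. It was the hyaluronan-mediated motility receptor gene Hmmr (-0.46, SE 0.16). Of 33 DNA replication genes 22 were lower (median -0.09), and the helicase subunit gene Mcm5 stood apart with 170, 170 and 134 in AMH-treated follicles, against 304, 327 and 186 in vehicle (-0.70, SE 0.15, adjusted p = 0.766). A dimmer Mcm5 probe set gave -0.11 (SE 0.19). Hypoxia and glycolysis genes were lower in 26 of 30 (median -0.13, and -0.08 without pool 2), with Vegfa, which encodes the angiogenic growth factor, at 568, 519 and 447 with AMH and 882, 626 and 584 in vehicle. Cholesterol biosynthesis genes were lower in 18 of 21 (median -0.12), with estimates from -0.31 to 0.03. Oxidative phosphorylation (27 of 30 lower, median -0.07) and ribosomal protein genes (26 of 28 lower, median -0.10) were higher with AMH in pool 3, at pool medians of 0.10 and 0.11. Lower in all 3 pools were 13 mitosis, 11 DNA replication, 13 hypoxia and 10 cholesterol genes, but only 1 oxidative phosphorylation and 3 ribosomal protein genes, against 12.4% of all genes.

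Among the other lists, the Igf-binding protein gene Igfbp6 (-0.48, SE 0.11) and the immediate early transcription factor gene Fosl1 (-0.69, SE 0.19) did not overlap between groups and were lower. Gadd45a, a stress response gene, had 532, 934 and 480 with AMH, against 418, 353 and 393 in vehicle (0.66, SE 0.21), also without overlap. Endothelial markers had a median of 0.02, which combined pool medians of 0.31, 0.49 and -0.94. Medians of the apoptosis, cyclin, heat shock, ER stress, matrix, metalloprotease, prostaglandin, cGMP, Hedgehog, Notch, IGF, YAP target, activin and lipid lists lay between -0.11 and 0.04.

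The 50 ng/mL cultures of the same pools allow the 2 doses to be compared directly. Control signals were highest on the 50 ng/mL array of pool 1. Its poly-A spike controls had a mean of 1428, against 376 to 973 on the other arrays of 24 h. Hybridisation controls had 2661 on it, against 1441 to 1989. Between 200 and 50 ng/mL, limma called 0 of 22518 probe sets (0%) at an adjusted p under 0.05, with a smallest adjusted p of 0.109, while 1990 (8.84%) had an unadjusted p under 0.05, of which 701 (3.11%) were lower and 1289 (5.72%) higher at 200 ng/mL. Left out in turn, the pools gave 0 to 32 called probe sets, with 32 without pool 2 and 1 without pool 3. The 50 and 200 ng/mL comparisons share the vehicle arrays, so their values are given side by side. Tyrobp had means against vehicle of -1.10 (SE 0.19) at 50 and -0.99 (SE 0.19) at 200 ng/mL, and Muc16 -1.01 (SE 0.21) and -0.92 (SE 0.21). The list medians at 50 and 200 ng/mL were -0.66 and -0.76 for leukocyte markers and -0.72 and -0.59 for surface epithelium markers. In the direct comparison of the doses, 1 of 18 leukocyte markers was lower at 200 ng/mL with an unadjusted p under 0.05, against 3.45% of all genes, and so were 0 of 18 surface epithelium markers.

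Other genes differed from vehicle at 200 ng/mL and less, or in the opposite direction, at 50 ng/mL. In order of vehicle, 50 and 200 ng/mL, the hypoxia-inducible gene Ndrg1 had mean signals of 592, 927 and 344, and differed by -1.40 (SE 0.20, adjusted p = 0.109) between 200 and 50 ng/mL. Cela3b differed by -1.14 (SE 0.15, adjusted p = 0.109) between the doses, with all 3 arrays of 200 ng/mL, at 221 to 416, below those of 50 ng/mL, at 582 to 875. Akr1c18 was near vehicle at 50 ng/mL (0.03, SE 0.26) and differed by -1.26 (SE 0.26) between the doses. For Star the difference between doses was -0.55 (SE 0.12).

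Oocyte markers had lower estimates at 50 ng/mL than at 200 ng/mL. Their median against vehicle was -0.77 at 50 ng/mL and 0.00 at 200 ng/mL, and in the direct comparison 18 of 24 were higher at 200 ng/mL with an unadjusted p under 0.05, against 5.55% of all genes. For Zp3 the 3 pools had 158, 1172 and 625 in vehicle, 88.8, 675 and 52.8 at 50 ng/mL, and 181, 1061 and 654 at 200 ng/mL, so the 50 ng/mL array of pool 3 stood lowest. The summed signal of 28 oocyte markers was 4286, 14318 and 7320 in vehicle, 3868, 8990 and 2956 at 50 ng/mL, and 3891, 12645 and 8665 at 200 ng/mL. The oocyte content of each culture and the dose cannot be told apart in these arrays.

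**Figure D4:**
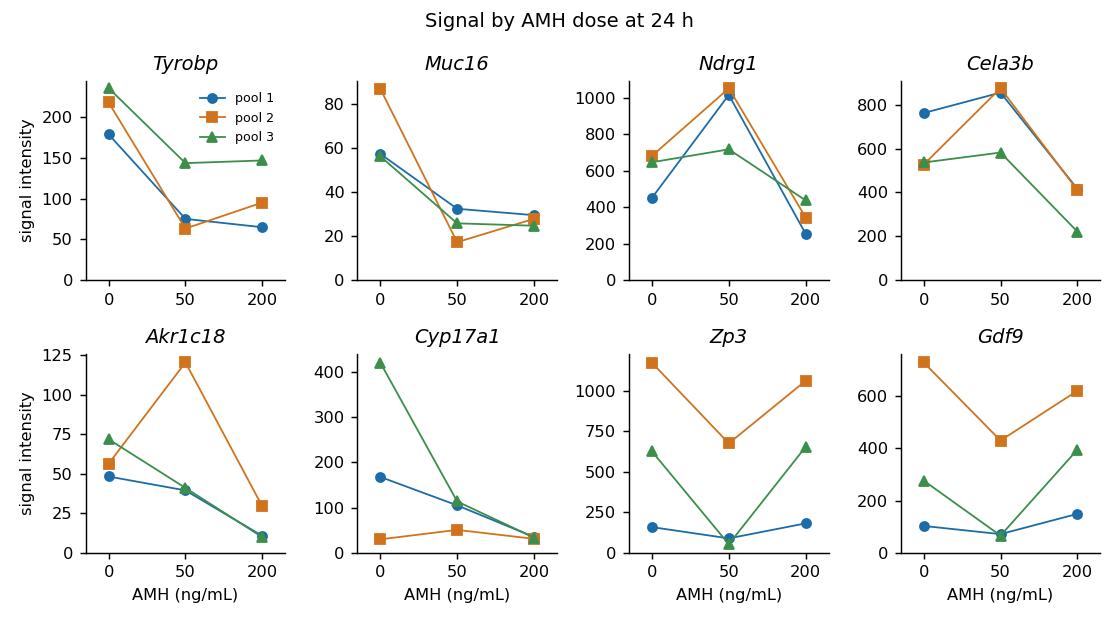
Signal intensity (vertical, from 0) of 8 genes at 0 (vehicle), 50 and 200 ng/mL of AMH after 24 h, with the 3 arrays of each follicle pool joined. Tyrobp and Muc16 were lower at both doses than in vehicle, Ndrg1 and Cela3b were lowest at 200 ng/mL in every pool, and Zp3 and Gdf9 were lowest at 50 ng/mL in every pool.

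At 12 h, AMH 200 ng/mL was tested on 3 other pools, and the 12 h array of replicate 3 stood apart, with poly-A spike controls at a mean of 4846, against 557 to 1334 on the other 5 arrays of AMH 200 ng/mL and vehicle. The effect at 24 h minus that at 12 h passed the adjusted threshold for 0 of 22518 probe sets (0%, smallest adjusted p = 0.749), also with replicate 3 of both times left out, and 1069 (4.75%) had an unadjusted p under 0.05, or 5.04% of genes. Smad6 was higher with AMH at both times, by 0.64 at 24 h and 0.93 at 12 h, as was Id3, by 0.36 and 0.46. Lyz1 stood at -1.64 at 24 h and 0.88 at 12 h, and Ccl2 at -1.09 and 0.51. List medians at 24 h and 12 h were -0.76 and -0.13 for leukocyte markers, -0.59 and 0.56 for surface epithelium markers, and 0.19 and 0.22 for SMAD1/5/9 targets, against 0.01 and -0.07 over all genes. The 12 h pools differed widely, with surface epithelium medians of 0.38, -0.29 and 1.63.

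**Figure D5:**
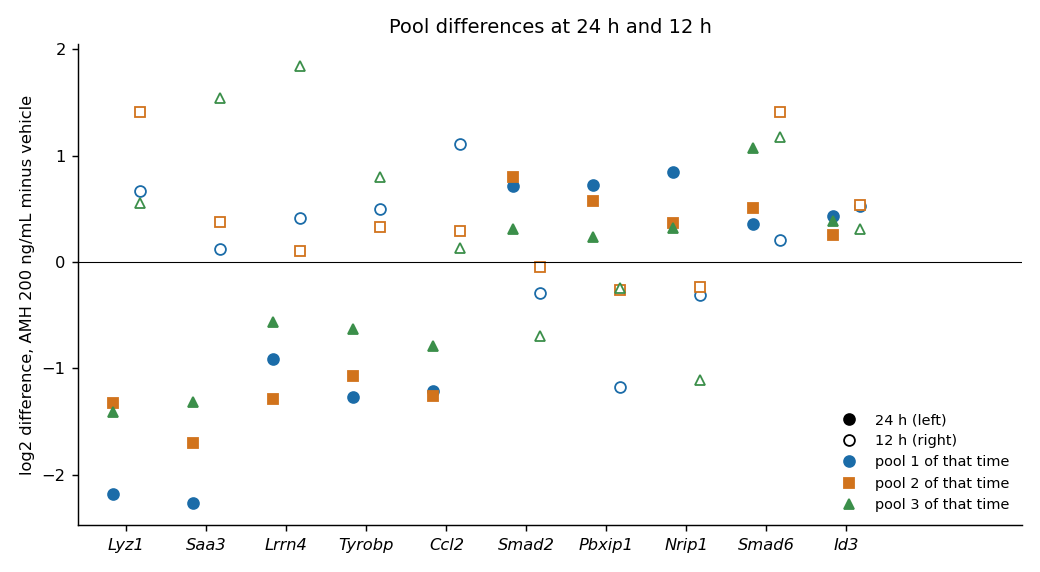
Log2 difference of AMH 200 ng/mL minus vehicle (vertical) in each pool at 24 h (filled, left) and 12 h (open, right) for 10 genes. The pools of the 2 times are different pools. Lyz1, Saa3, Lrrn4, Tyrobp and Ccl2 lie below 0 in all 3 pools at 24 h and above 0 in all 3 at 12 h, and Smad6 and Id3 lie above 0 in all 6.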

How the data were processed

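Signal intensity per probe set was deposited by the authors on a linear scale, computed with MAS5 per the submitters' processing notes (version not given in the sources used here). The 2% trimmed mean was 150 on every array, and no further normalization was applied. Of 45101 probe sets, 64 controls were left out, and 34945 of the other 45037 had 1 gene symbol, 932 several and 9160 none. Two-sided limma 3.58.1 tests (R 4.3.3, lmFit, eBayes with an intensity trend) used log2(signal + 16) of the 9 arrays of 24 h with the pool as a block and 4 residual degrees of freedom, and p-values were adjusted by Benjamini-Hochberg over 22518 probe sets.

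The pairing comes from the labels, which say that 1 pool was divided over the doses, and deviations from the group means correlated within pools with r = 0.06 to 0.49 over the 9 pairs. The effect at 24 h was compared with that at 12 h in the 12 arrays of AMH 200 ng/mL and vehicle, with the pool within time as a block. The descriptions of the 12 h AMH samples give 24 h, while their titles give 12 h, which was used. A gene in a list was represented by its brightest tested probe set, and the lists were described without a test.

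Named genes were those at least 2-fold different in all pools, the 15 higher and 15 lower with the smallest unadjusted p among genes with the same direction in all pools, at most 5 genes per list, ranked by unadjusted p, and fixed pathway and follicle genes. Beyond this rule, red blood cell and leukocyte markers below the tested range, the list members Csf1r, Cd52, C1qb, Ctss, Fcgr3, Laptm5, Krt8, Cdh1 and Sfrp4, and the genes of the last part were chosen after their values were seen. The members of the comparison and the lists were chosen with earlier results of these data known. Alternatives changed the pseudocount (1 or 50), normalization, filter, variance trend, array weights, block, arrays in the fit and the probe sets read for a gene. Each pool was also left out in turn. The fits were run on simulated data with planted differences of at least 2-fold and independent noise, without disturbances of whole arrays. That does not show how they perform on smaller differences. Promoter letters come from RefSeq (GRCm38.p6), and genome coordinates of probes were not used. Plots were made in python 3.11.15 (matplotlib 3.10.9).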

Additional observations from a re-analysis of the deposited data

Results flagged for a closer look

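Of the results described, 15 had opposite directions at 24 h and 12 h in every pool of both times. Several of them were among the genes chosen for having the same direction in all pools of 24 h. The share of all genes with such opposite directions was not computed, so the count is a description only. The test of the difference between times gave an adjusted p of 0.749 for each of the 14 genes, so none passed, and the list was not tested. At 24 h and 12 h, the macrophage genes Lyz1, Tyrobp and C1qb stood at -1.64 and 0.88, -0.99 and 0.54, and -0.94 and 0.50. The chemokine genes Ccl2 and Ccl9 stood at -1.09 and 0.51, and -1.03 and 0.53, and the median of the chemokine and cytokine list was -0.53 and 0.22. Saa3 stood at -1.76 and 0.68, the epithelial genes Lrrn4 and Wt1 at -0.92 and 0.79, and -0.52 and 0.76, and Fosl1 at -0.69 and 0.76.

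Higher at 24 h and lower at 12 h were Smad2, at 0.61 and -0.35, Smad5, at 0.28 and -0.58, Pbxip1, at 0.51 and -0.56, Nrip1, at 0.51 and -0.55, and Foxl2, at 0.13 and -0.35. The 12 h array of AMH 200 ng/mL with high spike controls is in replicate 3, where the SD of the log2 differences from vehicle was 0.827, against 0.326 and 0.398 in the other 12 h pools. In those pools, Tyrobp differed by 0.49 and 0.33, and Saa3 by 0.12 and 0.38.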

How the results depend on the processing

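The count of 0 probe sets at an adjusted p under 0.05 became 1 with a pseudocount of 50, 1 with quantile normalization, 4 with median centring, 1 with only probe sets above the 75th percentile and 4 with array weights, whose estimation stopped before convergence. Lyz1 was in each of these sets, and the sets of 4 added Saa3, Ifngr2 and Eppin. Without the replicate block, that is without the pairing by pool, the count was 0 and the unadjusted count 617. The unadjusted count of 984 was 1794 with no filter, 465 above the 75th percentile, 2359 with array weights and 48 with all 18 arrays. With each pool left out, the adjusted count was 0 to 0 and the unadjusted count 718 to 1237. Probe sets at least 2-fold lower in every pool numbered 1 above the 75th percentile, and 9 to 22 with a pool left out, when only 2 pools have to pass. Those at least 2-fold higher numbered 1 with a pseudocount of 1, and 1 to 9 with a pool left out. Between 200 and 50 ng/mL the count of 0 became 24 with median centring, 336 with array weights, from the same unconverged estimation, and 0 to 32 with a pool left out (32 without pool 2). Between 24 h and 12 h it became 214 with array weights and was 0 to 0 with a pool left out. The replicate block changed no other call.

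Of 1032 other values of named genes, 10 changed sign. With array weights, Amhr2 was -0.0031, Bmp15 -0.0079 and Cd52 -0.0764. Cyp11a1 was 0.0784 with quantile normalization, 0.0034 with median centring and 0.0381 with array weights. Hsd3b1 was 0.0161 and 0.0070, and Inha 0.0531 and 0.0052, with quantile normalization and array weights. With a pool left out, signs changed within the ranges -0.15 to 0.13 (Acvr1), -0.0317 to 0.0252 (Amhr2), -0.19 to 0.11 (Bmp15), -0.0657 to 0.0158 (Bmpr1a), -0.24 to 0.31 (Ccnd2), -0.11 to 0.12 (Cyp11a1), -0.19 to 0.10 (Hsd3b1), -0.0721 to 0.45 (Id4), -0.12 to 0.0612 (Inha), -0.0388 to 0.62 (Inhbb), -0.35 to 0.19 (Smad7), -0.0392 to 0.12 (Zp3), -0.34 to 0.51 (Cd52) and -0.22 to 1.14 (Hoxd10). The causes were not tested.

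The 3 pools limit what can be seen. A typical SE of 0.16 leaves modest differences undetected, signals near background compress folds through the added 16, and MAS5 gives no probe-level error here. Under every setting run, list medians stayed below 0 for leukocyte (-0.95 to -0.43), surface epithelium (-0.76 to -0.33) and chemokine genes (-0.63 to -0.18), and above 0 for SMAD1/5/9 targets (0.12 to 0.26).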

Other observations

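The largest positive estimate among the 11170 named genes belonged to Hoxc10, a posterior patterning transcription factor gene, chosen after its values were seen. It had signals of 134, 321 and 87.1 with AMH 200 ng/mL, against 76.7, 14.3 and 7.60 in vehicle, a difference of 2.10 (SE 0.73, adjusted p = 1.00). The vehicle arrays of pools 2 and 3 lay below the level of the filter, so the size of the difference depends on the added 16, and it was 2.85 with a pseudocount of 1 and 1.44 with 50. At 50 ng/mL the 3 pools had 110, 38.4 and 398. Hoxd11 had 42.3, 133 and 14.5 with 200 ng/mL, against 10.7, 3.50 and 2.10 in vehicle, and 24.1, 2.70 and 598 with 50 ng/mL. Hoxd10 had 87.6, 375 and 71.1 with 200 ng/mL, against 121, 62.5 and 73.1 in vehicle, and 189, 56.6 and 461 with 50 ng/mL. The array of 200 ng/mL in pool 2 and that of 50 ng/mL in pool 3 were the highest for all 3 genes, and the source of this transcript was not tested. Of 16 tested Hox probe sets, 9 had a higher estimate with 200 ng/mL, against 54.2% of all probe sets, and 3 an unadjusted p under 0.05, against 4.37%. Of the 3, those of Hoxc4 (-0.46, SE 0.17) and Hoxc5 (-0.48, SE 0.15) were lower.

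Among other genes with large positive estimates, the anion transporter gene Slc26a7 had 647, 576 and 612 with 200 ng/mL, against 206, 283 and 349 in vehicle, without overlap (1.11, SE 0.37, adjusted p = 1.00), while the 50 ng/mL arrays spread from 132 to 862. Mybpc3, which encodes a myosin-binding protein, had 166, 287 and 92.3 with 200 ng/mL, against 55.9, 60.5 and 75.5 in vehicle (1.19, SE 0.37), and Mapk10, a JNK kinase gene, had 202, 298 and 115, against 40.1, 97.8 and 95.2 (1.22, SE 0.38). In both, pool 3 differed by only 0.24.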
